A study of Mus musculus with 4 samples.

Results

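Of the 46517 genes in the deposited expression table, 10 make up the core of the G1 control of the cell cycle treated here: the D-type cyclin genes Ccnd1, Ccnd2 and Ccnd3, the kinase genes Cdk4 and Cdk6 that these cyclins activate, the E-type cyclin genes Ccne1 and Ccne2 with their kinase gene Cdk2, and the pocket protein genes Rb1 and Rbl1. They were taken by gene symbol, and each of the 10 symbols matched 1 row. All 10 passed the filter on low values (1 TPM or more in 2 or more libraries). The data are mRNA sequencing of LSK cells (Lin-, Sca-1+, c-Kit+), a sorted mouse fraction rich in blood stem cells and early multipotent progenitors. The libraries came from Setd2D/D mice, in which Setd2 is knocked out (2 libraries), and from Setd2f/f mice, whose Setd2 is wild type (2 libraries). All mice were C57BL/6 and 8 to 10 weeks old. Setd2 encodes the methyltransferase that trimethylates H3K36. The sources used here do not give how Setd2 was deleted, which exons were lost or how many mice went into each library. Nothing says that the libraries came from separate mice, so every p-value reflects the spread of these libraries alone, and that spread may be technical. The stated question of the study is the role of Setd2 in keeping adult blood stem cells quiescent and in their differentiation.

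As background, mitogenic and cytokine signals raise D-type cyclins, which bind Cdk4 or Cdk6. These complexes phosphorylate the pocket proteins, which otherwise hold E2F transcription factors in check. Freed E2F raises its own target genes, among them those of the E-type cyclins, and cyclin E with Cdk2 completes the phosphorylation and starts DNA replication. In the blood system the D-type cyclins overlap in function, Cdk6 is known for setting how readily stem cells leave quiescence, and loss of the pocket proteins drives stem cells into cycle.

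Levels are given in TPM, a gene's scaled share of the transcripts in a library after correction for transcript length, so that genes can be compared with each other. Setd2 itself was at 43.4 and 49.5 TPM in Setd2D/D LSK cells, against 78.9 and 68.0 TPM in Setd2f/f LSK cells (limma adjusted p = 0.329), and the authors' deposited table gives it a log2 change of -0.73 (FDR 5.84e-06). This gene-level value does not separate transcripts that lack only the deleted exons. Per the worth of 1 read, the Setd2D/D libraries had 0.616 and 0.927 of the depth of Setd2f/f replicate 2, and Setd2f/f replicate 1 had 0.824. Setd2D/D replicate 1 stood apart from the rest, at r = 0.91 with each other library across 14755 genes, which are not independent replicates. The Setd2f/f libraries correlated with each other at r = 0.96. Of the defining markers of the sort, Kit was at 301 and 285 TPM in Setd2D/D and 224 and 249 TPM in Setd2f/f, and Ly6a, which encodes Sca-1, at 46.5 and 80.6 TPM in Setd2D/D and 128 and 124 TPM in Setd2f/f. Neither passed limma, and Ly6a was lower in the authors' deposited table (log2 change -0.91, FDR 3.08e-06).

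None of the 10 genes passed the test between genotypes. The test was limma on log2(TPM + 1) with Benjamini-Hochberg adjustment over all genes tested, and 0 of the 10 had an adjusted p under 0.05, against 0.0678% of the 14755 genes tested (0.0203% higher and 0.0474% lower in Setd2D/D). The adjusted p-values lay between 0.491 and 0.992. At an unadjusted p under 0.05 the count was again 0 of 10, against 11.2% of all genes. With all 4 libraries the log2 changes, Setd2D/D minus Setd2f/f, had a median of -0.04 over the 10 genes and -0.06 over all genes tested. Of the 10 changes, 4 lay above 0 and 6 below. Without Setd2D/D replicate 1, the library that stood apart, the changes of the 10 ran from -0.41 (Rb1) to 0.0092 (Cdk6). The intervals that follow are from all 4 libraries. For 7 of the 10 the 95% interval of the change stayed within 1 on either side of 0 on the log2 scale, so a doubling or halving lay outside it. For Ccnd1, Ccne1 and Rb1 the interval reached beyond 1. In the authors' deposited table, 1 of the 10 had an FDR under 0.05, against 3.15% of the 23955 genes it holds. That gene was Ccnd2.

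**Figure D1:**
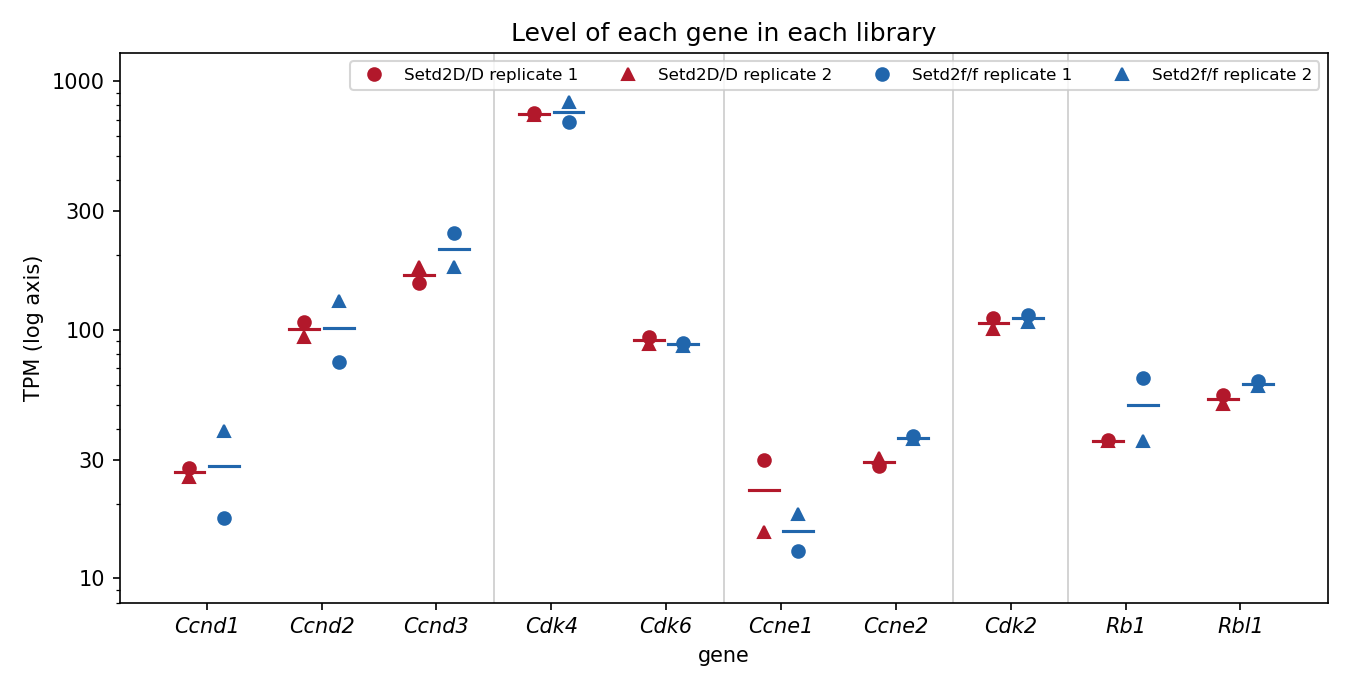
TPM on a log axis of the 10 genes in each library, with Setd2D/D in red at the left and Setd2f/f in blue at the right of each gene, circles for replicate 1, triangles for replicate 2 and a bar at the mean of 2 libraries. Cdk4 stands highest at 733 to 822 TPM in 3 libraries and 687 TPM in the other, and the Setd2f/f pair is wider apart than the Setd2D/D pair for Ccnd1, Ccnd2, Ccnd3, Cdk4 and Rb1.

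Ranked by the mean over the 4 libraries, the order of levels was Cdk4, Ccnd3, Cdk2, Ccnd2, Cdk6, Rbl1, Rb1, Ccne2, Ccnd1 and Ccne1. Cdk4 lay above Ccnd3 in every library and Ccnd3 above Cdk2 in every library, with no overlap of their ranges. The ranges of Cdk2 and Ccnd2 overlapped, as did those of Ccnd2 and Cdk6. Cdk6 lay above Rbl1 in every library. From Rbl1 down to Ccne1 each gene's range overlapped that of its neighbour. Cdk4 had a mean above 98.8% of the genes tested and Ccnd3 above 95.2%, while Ccne1, the lowest, lay above 49.7%.

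Ccnd1 (chromosome 7, 144929931 to 144939925, GRCm38) encodes cyclin D1. It was at 27.9 and 25.7 TPM in Setd2D/D LSK cells, against 17.5 and 39.4 TPM in Setd2f/f LSK cells. The Setd2D/D pair fell between the Setd2f/f libraries, whose replicate 2 had 2.25 times the level of replicate 1. Setd2D/D minus Setd2f/f, the log2 change was 0.02 with a 95% interval from -1.01 to 1.05 (limma adjusted p = 0.992). Without Setd2f/f replicate 1 it was -0.54, and without Setd2f/f replicate 2 it was 0.59. The authors' deposited table gives a log2 change of 0.33 (FDR 0.331).

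Ccnd2 (chromosome 6, 127125162 to 127152193) encodes cyclin D2, the D-type cyclin best known as a target of cytokine signalling through STAT5. It was at 107 and 93.5 TPM in Setd2D/D LSK cells and 74.0 and 130 TPM in Setd2f/f LSK cells, so again the Setd2D/D pair lay inside the Setd2f/f pair. On the log2 scale the change was 0.03 with an interval from -0.72 to 0.78 (limma adjusted p = 0.984). The authors' deposited table, in contrast, gives Ccnd2 a log2 change of -0.49 (FDR 0.0117). The log2 ratio of the mean TPM was -0.03, so the values of the authors' table and of the TPM table lay 0.46 apart, a distance reached by 5.42% of the 14607 genes that have both values. The median of that distance over all these genes was 0.06.

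Ccnd3 (chromosome 17, 47505051 to 47599691) encodes cyclin D3, which is known for its roles in lymphoid and erythroid precursors. It was at 154 and 178.5 TPM in Setd2D/D LSK cells, against 245 and 178.7 TPM in Setd2f/f LSK cells. Both Setd2D/D libraries lay below both Setd2f/f libraries, but Setd2D/D replicate 2 and Setd2f/f replicate 2 were almost level. The log2 change was -0.34 with an interval from -0.82 to 0.15 (limma adjusted p = 0.550). Leaving out Setd2f/f replicate 1 gave -0.11, and leaving out Setd2f/f replicate 2 gave -0.56. The authors' deposited table gives -0.26 (FDR 0.436).

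Summed over Ccnd1, Ccnd2 and Ccnd3, D-type cyclin transcripts were at 289 and 298 TPM in Setd2D/D LSK cells, against 337 and 348.5 TPM in Setd2f/f LSK cells. The mean was 293 ± 6.09 TPM in Setd2D/D and 343 ± 8.28 TPM in Setd2f/f (SD, n = 2 each), a ratio of 0.856. The sums did not overlap between genotypes. Among single genes tested, 27.6% had both Setd2D/D libraries below both Setd2f/f libraries. Most of the gap between the mean sums lay in Ccnd3, with means of 166 TPM in Setd2D/D and 212 TPM in Setd2f/f. The means of Ccnd2 were 100 and 102 TPM and those of Ccnd1 26.8 and 28.4 TPM, in the same order. The large part of Ccnd3 rested on Setd2f/f replicate 1, where it was at 245 TPM. In Setd2f/f replicate 2 Ccnd3 was at 178.7 TPM. There Ccnd2, at 130 TPM, stood further above its Setd2D/D mean than Ccnd3 did. The Setd2f/f libraries lay closer together in the sum than in any of the 3 genes alone. The makeup of the sum varied more. Ccnd3 made up 53.2% and 60.0% of it in Setd2D/D LSK cells and 72.8% and 51.3% in Setd2f/f LSK cells. Ccnd2 made up 37.2% and 31.4% in Setd2D/D and 22.0% and 37.4% in Setd2f/f, and Ccnd1 between 5.19% and 11.3% in all 4. No p is given for the sum, because the genes were chosen with results of these data known. An exact permutation test of 2 libraries against 2 could not go below p = 0.333 in any case.

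**Figure D2:**
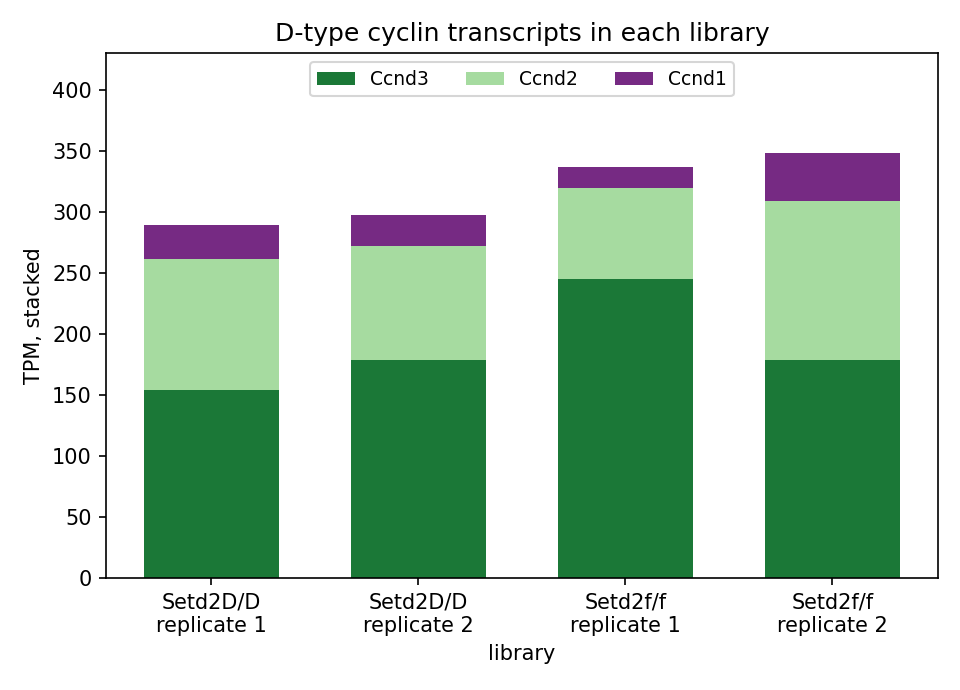
Stacked TPM of Ccnd3, Ccnd2 and Ccnd1 in each library, Setd2D/D at the left and Setd2f/f at the right, 1 bar per library. The bars reach 289 and 298 TPM in Setd2D/D and 337 and 348.5 TPM in Setd2f/f, and Setd2f/f replicate 1 has the largest Ccnd3 part (72.8%) and the smallest Ccnd1 part (5.19%).

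Markers of other blood lineages also differed between the libraries. The 8 B lineage markers summed to 179 and 249 TPM in Setd2D/D, against 513 and 282 TPM in Setd2f/f, and 6 of 8 were lower in the authors' deposited table, against 1.64% of all its genes. Setd2f/f replicate 1, with the highest B lineage sum, also had the highest Ccnd3 and Rb1 and the lowest Ccnd1 and Ccnd2. The 12 erythroid markers summed to 641 and 574 TPM in Setd2D/D and 186 and 221 TPM in Setd2f/f, and 9 of 12 were higher in the authors' deposited table, against 1.51% of all its genes. The 11 granulocyte-monocyte markers summed to 2972 and 3968 TPM in Setd2D/D and 1837 and 2272 TPM in Setd2f/f, with 7 of 11 higher in the authors' deposited table. The 6 megakaryocyte markers summed to 90.5 and 95.1 TPM in Setd2D/D and 75.2 and 65.2 TPM in Setd2f/f, and the 8 stem cell markers to 332 and 294 TPM in Setd2D/D and 433 and 355 TPM in Setd2f/f. The 2 sort markers together gave 348 and 366 TPM in Setd2D/D and 352 and 372 TPM in Setd2f/f. Of the 8 T and NK markers 4, and of the 8 stromal and endothelial markers 6, stayed under 1 TPM in all libraries. The 8 T and NK markers summed to 79.9 and 122 TPM in Setd2D/D and 132.2 and 131.6 TPM in Setd2f/f. Most of that was Nkg7 alone, at 78.7 and 116 TPM in Setd2D/D and 114 and 126 TPM in Setd2f/f. The stromal and endothelial markers summed to 90.5 and 84.5 TPM in Setd2D/D and 125 and 98.3 TPM in Setd2f/f. Nearly all of that was Pecam1 (84.6 and 70.7 TPM in Setd2D/D, 81.2 and 73.1 TPM in Setd2f/f) and Emcn (5.68 and 11.7 TPM, 42.9 and 24.3 TPM). These 2 sums thus describe few genes. By limma 0 genes of these lists passed, and the authors' deposited table calls 2 stem cell markers, 1 sort marker and 1 marker each of the megakaryocyte, T and NK, and stromal lists, all lower. The part of these cell types in the cyclin levels was not tested, and in bulk samples fewer cells of a type and less RNA per cell cannot be told apart.

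Cdk4 (chromosome 10, 127063534 to 127067920) encodes a kinase partner of the D-type cyclins and was by far the most abundant of the 10. It was at 748 and 733 TPM in Setd2D/D LSK cells, against 687 and 822 TPM in Setd2f/f LSK cells. The Setd2D/D pair lay inside the Setd2f/f pair. Setd2D/D minus Setd2f/f, the log2 change was -0.02 with an interval from -0.33 to 0.28 (limma adjusted p = 0.964), and after scaling by trimmed means of M values it was 0.03. Cdk4 is a textbook target of MYC, which binds E-boxes. The RefSeq promoter window of Cdk4, from 250 bases before to 50 bases after the start (GRCm38.p6, plus strand, chr10:127063285-127063584), is shown because of this level, with each match to the E-box CACGTG, which reads the same on both strands, in capitals:
Cdk4: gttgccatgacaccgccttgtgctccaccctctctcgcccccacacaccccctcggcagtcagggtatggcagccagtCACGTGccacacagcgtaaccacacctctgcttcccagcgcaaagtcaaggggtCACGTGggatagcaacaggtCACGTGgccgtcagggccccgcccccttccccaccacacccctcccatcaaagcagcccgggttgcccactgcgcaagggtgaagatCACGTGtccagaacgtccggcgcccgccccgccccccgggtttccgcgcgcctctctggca
It holds 4 such matches, which begin 172, 118, 98 and 11 bases before the start. At least 1 match was present in 7.15% of the 32851 windows of that length in the table and 4 or more in 8 windows. A match describes the letters and is no evidence of binding. Myc was at 291 and 275 TPM in Setd2D/D and 306 and 361 TPM in Setd2f/f (limma adjusted p = 0.525), named here for its link to Cdk4 and not by rank.

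Cdk6 (chromosome 5, 3341485 to 3531008) encodes the other partner of the D-type cyclins. It was at 93.9 and 88.0 TPM in Setd2D/D LSK cells, against 88.4 and 86.5 TPM in Setd2f/f LSK cells, the smallest span among the 10 in relation to its level. On the log2 scale the change was 0.06 with an interval from -0.23 to 0.34 (limma adjusted p = 0.885). Per transcript, Cdk4 was 7.97 and 8.33 times as abundant as Cdk6 in Setd2D/D LSK cells and 7.78 and 9.50 times in Setd2f/f LSK cells. Per read, with no division by length, the order was the reverse: the authors' deposited table gives a mean log2 CPM, a read share not corrected for length, of 9.01 for Cdk6 and 8.74 for Cdk4. The longest coding transcript of Cdk6 has 11525 nt and that of Cdk4 2053 nt in GENCODE M21. Summed over both kinases, the level was 842 and 821 TPM in Setd2D/D, against 776 and 909 TPM in Setd2f/f.

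An antisense gene inside the Cdk6 locus was higher in Setd2D/D in the authors' deposited table. Gm17590 in GENCODE M21 (ENSMUSG00000106588, chromosome 5, 3472861 to 3480873, strand opposite to Cdk6), singled out after its values were seen, was at 10.9 and 29.3 TPM in Setd2D/D LSK cells, against 1.98 and 2.02 TPM in Setd2f/f LSK cells. The groups did not overlap, and the Setd2D/D libraries differed widely from each other. The limma log2 change was 2.66 with an SE of 0.50 (adjusted p = 0.274), and the authors' deposited table gives 2.53 (FDR 0.0133). It shares 368 exon bases with Cdk6. More widely, 8 of the 10 genes share exon bases with a gene on the opposite strand, with Ccne1 and Rbl1 as the other two. Whether strand was kept is not given in the sources used here, so reads over such bases cannot be told apart.

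Ccne1 (chromosome 7, 38097984 to 38107534) encodes cyclin E1. It was at 29.9 and 15.4 TPM in Setd2D/D LSK cells, against 12.9 and 18.2 TPM in Setd2f/f LSK cells. Setd2D/D replicate 1, the shallowest library, stood above the other 3 libraries, and Setd2D/D replicate 2 lay between the Setd2f/f libraries. The log2 change was 0.46, the largest in size of the 10, with an interval from -0.51 to 1.44 (limma adjusted p = 0.672). Leaving out Setd2D/D replicate 1 gave 0.0052, and leaving out Setd2D/D replicate 2 gave 0.92. The authors' deposited table gives 0.71 (FDR 0.168).

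Ccne2 (chromosome 4, 11191351 to 11204779) encodes cyclin E2. It was at 28.4 and 30.6 TPM in Setd2D/D LSK cells, against 37.5 and 36.2 TPM in Setd2f/f LSK cells. Both pairs were tight and did not overlap. Setd2D/D minus Setd2f/f, the log2 change was -0.31 with an interval from -0.69 to 0.06, and its limma adjusted p of 0.491 was the lowest of the 10 (unadjusted p = 0.0856). The authors' deposited table has the opposite sign, a log2 change of 0.16 (FDR 0.836), and lay 0.48 from the log2 ratio of mean TPM of -0.32. A distance of that size was reached by 5.02% of genes. For Ccnd1 the distance was 0.42 (reached by 6.39% of genes) and for Rb1 0.32 (9.47%). The log2 ratio of mean TPM and the authors' deposited table had opposite signs for 2 of the 10, Ccne2 and Ccnd1 (-0.09 by mean TPM for Ccnd1). The limma change had a sign opposite to the authors' deposited table for Ccne2 and Ccnd2. The cause of these differences was not tested. Summed, the E-type cyclins were at 58.4 and 46.0 TPM in Setd2D/D, against 50.5 and 54.4 TPM in Setd2f/f, and Ccne1 made up 51.3% and 33.5% of that sum in Setd2D/D and 25.6% and 33.4% in Setd2f/f.

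Cdk2 (chromosome 10, 128697939 to 128705031) encodes the kinase that pairs with the E-type cyclins. It was at 112 and 101 TPM in Setd2D/D LSK cells, against 115 and 108 TPM in Setd2f/f LSK cells. The groups overlapped, and the log2 change was -0.06 with an interval from -0.36 to 0.24 (limma adjusted p = 0.870). The authors' deposited table gives -0.03 (FDR 0.970).

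Rb1 (chromosome 14, 73183673 to 73325822) encodes the retinoblastoma protein. It was at 36.1 and 35.7 TPM in Setd2D/D LSK cells, against 63.9 and 35.8 TPM in Setd2f/f LSK cells. Setd2f/f replicate 1 alone stood apart, and the other 3 libraries were nearly level. Rcbtb2, an opposite-strand neighbour picked after its values were seen, shares 488 exon bases with Rb1. It was at 62.8 and 52.3 TPM in Setd2D/D and 86.6 and 68.2 TPM in Setd2f/f. Its log2 change was -0.42 (limma adjusted p = 0.479). Lpar6, also on the opposite strand, shares 408 exon bases with Rb1. Its log2 change went the other way, at 0.27 (limma adjusted p = 0.702). The part of these neighbours in the Rb1 level was not tested. On the log2 scale the change of Rb1 was -0.40 with an interval from -1.17 to 0.36 (limma adjusted p = 0.638). Without Setd2f/f replicate 1 it was 0.0053. The authors' deposited table gives -0.15 (FDR 0.822).

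Rbl1 (chromosome 2, 157145893 to 157204534) encodes p107, a pocket protein whose gene is itself a textbook E2F target. It was at 54.8 and 50.2 TPM in Setd2D/D LSK cells, against 62.4 and 59.3 TPM in Setd2f/f LSK cells, with no overlap. The log2 change was -0.21 with an interval from -0.54 to 0.12 (limma adjusted p = 0.579), and the authors' deposited table gives -0.06 (FDR 0.922). The RefSeq promoter window of Rbl1 (GRCm38.p6, minus strand, chr2:157204485-157204784) is shown for this link to E2F, 5′ to 3′ with the match to an E2F motif in capitals:
Rbl1: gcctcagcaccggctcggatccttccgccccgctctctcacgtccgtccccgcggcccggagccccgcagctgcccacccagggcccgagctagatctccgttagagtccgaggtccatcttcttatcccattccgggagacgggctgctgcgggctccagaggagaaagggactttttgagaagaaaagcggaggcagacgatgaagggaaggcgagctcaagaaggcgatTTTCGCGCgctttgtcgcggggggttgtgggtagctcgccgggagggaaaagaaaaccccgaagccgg
The 4 motifs searched on both strands were TTTCCCGC, TTTCGCGC, TTTGCCGC and TTTGGCGC. The match TTTCGCGC begins 18 bases before the start. Of the 6 genes of this group with a window in the table, Rbl1 and Cdk2 held a match, as did 2.26% of all windows. The third pocket protein gene, Rbl2, outside the 10, was at 59.5 and 45.3 TPM in Setd2D/D and 54.8 and 46.1 TPM in Setd2f/f, so that Rb1 made up 24.0% and 27.2% of pocket protein transcripts in Setd2D/D and 35.3% and 25.3% in Setd2f/f.

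**Figure D3:**
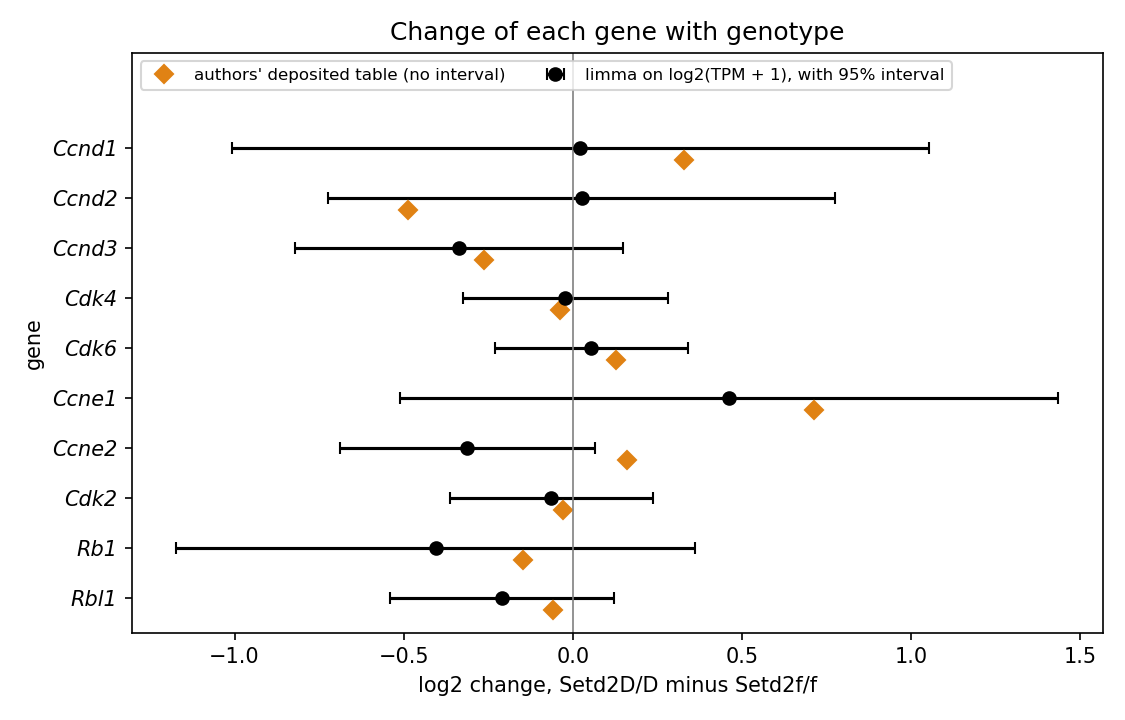
Log2 change of each of the 10 genes, Setd2D/D minus Setd2f/f, by limma on log2(TPM + 1) (black points with 95% intervals, n = 2 libraries a genotype) and in the authors' deposited table (orange diamonds). Every interval includes 0, and the widest is that of Ccnd1 (-1.01 to 1.05). The diamonds of Ccnd2 (-0.49) and Ccne2 (0.16) stand farthest from their points (0.03 and -0.31).

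Across the 10 genes, both Setd2D/D libraries lay below both Setd2f/f libraries for 3 (Ccnd3, Ccne2 and Rbl1), against 27.6% of all genes tested, and above them for 0, against 16.8%. In 6 of the 10 the Setd2f/f libraries lay further apart than the means of the genotypes on the log2(TPM + 1) scale, against 45.4% of all genes.

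Of 100 tested genes in 7 lists around these 10, 0 passed limma and 15 had an unadjusted p under 0.05, against 11.2% of all genes tested. Both Setd2D/D libraries lay above both Setd2f/f libraries for 17 of the 100, against 16.8% of all genes, and below them for 35, against 27.6%. The median log2 change was -0.10. The authors' deposited table calls 5 of the 100, against 3.15% of all its genes: 1 was higher, Stat5a, and 4 were lower, among them Cdkn2c, E2f2 and Mycn.

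CDK inhibitors restrain the kinases. Of 5 tested, the authors' deposited table calls 1, Cdkn2c, against 3.15% of all its genes. Cdkn2c encodes p18INK4C, an inhibitor of Cdk4 and Cdk6. It was at 5.54 and 6.16 TPM in Setd2D/D LSK cells, against 26.1 and 15.6 TPM in Setd2f/f LSK cells. The limma log2 change was -1.63 with an SE of 0.31 (adjusted p = 0.276), and the authors' deposited table gives -1.49 (FDR 3.71e-05). Cdkn2a and Cdkn2b, named for this value, were listed at 0 TPM in all 4 libraries. Cdkn1c, which encodes p57, an inhibitor known for keeping stem cells quiescent, was at 3.70 and 5.14 TPM in Setd2D/D, against 4.95 and 5.95 TPM in Setd2f/f (limma adjusted p = 0.793). Cdkn1a, an inhibitor induced by p53, was at 13.2 and 18.8 TPM in Setd2D/D and 13.3 and 13.9 TPM in Setd2f/f. The list had a median log2 change of -0.13, with 2 genes above 0 and 3 below.

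Of the 10 E2F and DP factors, through which the pocket proteins act, 0 passed limma and 1, E2f2, was lower in the authors' deposited table (log2 change -0.73, FDR 0.000811). E2f2 was at 7.65 and 19.9 TPM in Setd2D/D and 21.5 and 15.9 TPM in Setd2f/f, so that Setd2D/D replicate 1 alone was low and the groups overlapped. E2f1, the activating factor best known in S phase entry, was at 25.1 and 26.6 TPM in Setd2D/D, against 31.4 and 34.2 TPM in Setd2f/f. Tfdp1, the dimer partner of the E2F proteins, was at 269 and 245 TPM in Setd2D/D, against 194 and 226 TPM in Setd2f/f. Neither passed limma (adjusted p = 0.488 and 0.466). The median log2 change of the list was -0.03.

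The 8 DREAM and MuvB genes are Rbl2 and genes whose products join Rbl1 or Rbl2 in repressing cell cycle genes or later activate mitotic genes. They had a median log2 change of -0.23, against -0.06 for all genes tested. Of the 8, 7 lay below 0, and Rbl2 was the 1 above (0.05). In the authors' deposited table fewer than 7 of the 8 lay below 0. Past the threshold were 0 of the 8 in limma and 0 in the authors' deposited table. Lin9, a MuvB core subunit, was at 17.1 and 15.3 TPM in Setd2D/D, against 26.4 and 26.7 TPM in Setd2f/f (limma adjusted p = 0.346). Mybl2, which MuvB binds in proliferating cells, was at 47.6 and 50.2 TPM in Setd2D/D, against 63.1 and 68.3 TPM in Setd2f/f (limma adjusted p = 0.397). For both, both Setd2D/D libraries lay below both Setd2f/f libraries.

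The 20 genes of CDK activation and cyclin turnover had a median log2 change of 0.00, with 10 above 0 and 10 below, and 0 passed in limma or in the authors' deposited table. Cdc25a, a phosphatase that activates Cdk2, was at 59.3 and 52.9 TPM in Setd2D/D, against 45.9 and 44.7 TPM in Setd2f/f. Skp1a, a ubiquitin ligase subunit, was at 274 and 271 TPM in Setd2D/D, against 309 and 320 TPM in Setd2f/f. Their limma adjusted p-values were 0.484 and 0.479.

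Cyclins of the later phases with Cdk1 gave 5 tested genes with a median log2 change of 0.22 and 0 calls in limma or the authors' deposited table. The mitotic cyclin gene Ccnb1 was at 149 and 127 TPM in Setd2D/D, against 112 and 104 TPM in Setd2f/f, and Ccna2, a cyclin of S phase, at 116 and 105 TPM in Setd2D/D, against 131 and 120 TPM in Setd2f/f. Neither passed limma (adjusted p = 0.436 and 0.592). Ccnb2, another mitotic cyclin gene, was at 78.4 and 83.8 TPM in Setd2D/D, against 92.9 and 94.0 TPM in Setd2f/f (limma adjusted p = 0.544). Cdk1, the mitotic kinase gene, was at 258 and 244 TPM in Setd2D/D, against 193 and 201 TPM in Setd2f/f (limma adjusted p = 0.381).

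The E2F target genes of S phase entry, a readout downstream of the 10, had 26 tested genes with a median log2 change of -0.08, near the -0.06 of all genes, with 6 above 0 and 20 below. Of these 0 passed limma or the authors' deposited table. Pcna, the sliding clamp of DNA polymerases, was at 534 and 479 TPM in Setd2D/D, against 644 and 586 TPM in Setd2f/f (limma adjusted p = 0.446). Msh6, a mismatch repair protein gene, was at 54.0 and 59.4 TPM in Setd2D/D, against 75.0 and 71.6 TPM in Setd2f/f (limma adjusted p = 0.423). Rrm2, which encodes a subunit of ribonucleotide reductase, was at 175 and 191 TPM in Setd2D/D, against 167 and 150 TPM in Setd2f/f (limma adjusted p = 0.549).

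The 26 genes of signals upstream of the D-type cyclins had a median log2 change of -0.16, with 6 above 0 and 20 below, and 0 passed limma while 8 of 26 had an unadjusted p under 0.05, against 11.2% of all genes tested. The authors' deposited table has 1 of them higher and 2 lower, against 3.15% of all its genes called in either direction. Mycn was at 23.0 and 21.6 TPM in Setd2D/D, against 34.4 and 37.5 TPM in Setd2f/f, with -0.64 (FDR 0.00393) in the authors' deposited table. Stat5a, a transcription factor downstream of cytokine receptors and upstream of Ccnd2, was at 80.5 and 78.8 TPM in Setd2D/D, against 53.4 and 60.5 TPM in Setd2f/f, with 0.49 (FDR 0.0108) in the authors' deposited table. By limma neither Mycn nor Stat5a passed (adjusted p = 0.329 and 0.365). Bmi1, a Polycomb gene needed for stem cell self-renewal, was at 38.3 and 38.1 TPM in Setd2D/D, against 64.9 and 56.3 TPM in Setd2f/f (limma adjusted p = 0.308).

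**Figure D4:**
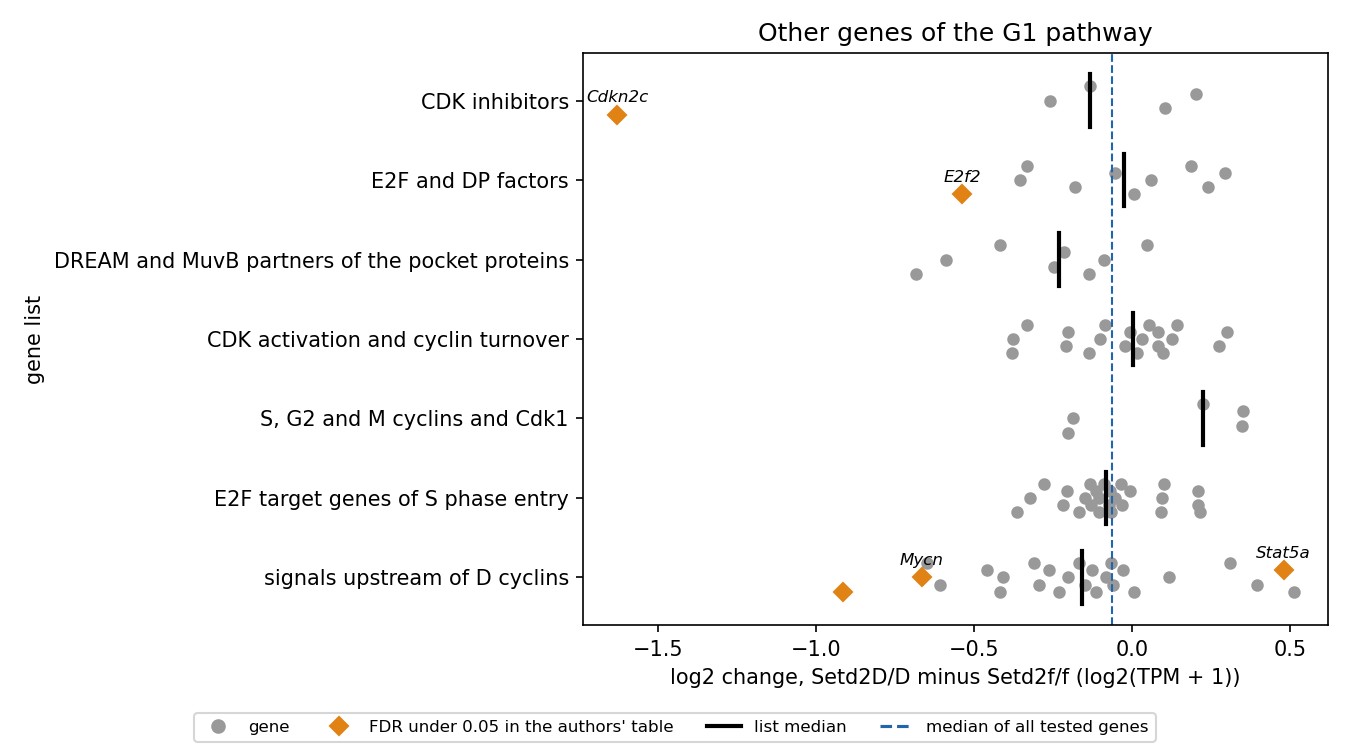
Log2 change on the log2(TPM + 1) scale, Setd2D/D minus Setd2f/f, of the tested genes of 7 lists around the 10 genes. Each point is a gene, orange diamonds have an FDR under 0.05 in the authors' deposited table (those named in the text carry a name), black bars are list medians and the dashed line is the median of all tested genes (-0.06). The medians lie between -0.23 (DREAM and MuvB) and 0.22 (later cyclins and Cdk1), and Cdkn2c stands farthest from 0 at -1.63.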

How the data were processed

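The authors deposited TPM for 46517 genes in 4 mRNA-seq libraries. Their deposited comparison covers 23955 genes with linear fold changes (a ratio), the log2 of these, mean log2 CPM, an F statistic (a score), and both p-value and FDR. Setd2 is negative in it, so its direction is Setd2D/D over Setd2f/f. Per the submitters' processing notes, cutadapt, RSEM, edgeR and mm10 were used, with neither role nor version stated. TPM divides by transcript length and is scaled within each library, while the CPM of the authors' table is not divided by length. Total reads per library are not given, and relative depth was read from the steps of low values in 221 to 349 genes with 1 transcript of 250 to 2500 nt. In 5 rows of the TPM table and 2 of the comparison, a gene name split over a pair of fields was rejoined.

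The 14755 genes that reached a TPM of 1 in 2 or more libraries were tested as log2(TPM + 1) with limma 3.58.1 in R 4.3.3. The fit had genotype as the 1 term and an abundance trend, with 2-sided p-values and Benjamini-Hochberg adjustment at 0.05. A check on simulated data gave every gene the same spread and planted changes larger than those of the 10 genes. It does not cover changes of their size. Fold changes on this scale understate the change of low genes. Coordinates, transcripts and overlaps come from GENCODE M21 (GRCm38, which is mm10), and promoters from RefSeq (GRCm38.p6), where 6 of the 10 genes had an entry. All 10 genes are named, with up to 4 genes of each list by the smallest p and all those called, except 1 called gene that is not reported here. The genes and lists were chosen with earlier results of these data known. The alternatives were other pseudocounts, filters, scalings and variance moderation, a block for replicate number, and leaving out each library in turn.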

Additional observations from a re-analysis of the deposited data

How the results depend on the processing

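Of the 15 alternatives, those that kept all libraries placed 0 of the 10 genes past the threshold, with limma adjusted p-values of at least 0.471. Over all genes 3 to 19 passed in most of these settings. With no filter or with the replicate block 0 of all genes passed, so there the count of the 10 could only be 0. At an unadjusted p under 0.05 the count of the 10 was 0 in every setting that kept all libraries. Over all genes that count lay between 1294 of 11428 (filter at TPM 5) and 2035 of 23893 (no filter). With 1 library left out only the changes are given for the 10. Of 150 recomputed changes, 141 kept their sign and 9 did not, most of these with 1 library left out. The count of 141 includes changes that could not differ from the main ones. These came from the 2 other filters, the 2 other variance settings and the replicate block, which leave the estimate as it is. Among settings that kept all libraries, Cdk4 alone changed sign, at 0.031 after scaling by trimmed means of M values and 0.038 after median-of-ratios scaling. With 1 library left out, the lone library of a genotype being assumed to vary like the other pair, the change lay between -0.54 and 0.59 for Ccnd1, -0.38 and 0.43 for Ccnd2, -0.56 and -0.11 for Ccnd3, 0.0052 and 0.92 for Ccne1, -0.81 and 0.0053 for Rb1, -0.15 and 0.11 for Cdk4 and -0.14 and 0.0097 for Cdk2. The D-type cyclin sum differed by -0.22 on the log2 scale, between -0.25 and -0.20 with 1 library left out. In a check chosen after seeing the data it was -0.17 after scaling by trimmed means of M values, -0.16 after median-of-ratios scaling and -0.21 without mitochondrially encoded, haemoglobin and immunoglobulin genes.

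Over all genes limma placed 10 past the threshold, 3 with a pseudocount of 0.1, 19 without the abundance trend, 0 of 23893 with no filter (2035 at an unadjusted p under 0.05), and 0 with any 1 library left out, where 554 to 2928 had an unadjusted p under 0.05. With the replicate block 0 passed and 1508 had an unadjusted p under 0.05. The labels do not say that equal replicate numbers mark a shared mouse or day, and same-numbered libraries deviated together at r = 0.041, so the block was not used to pair libraries. The cause of these moves was not tested. With 2 libraries a genotype, intervals as wide as that of Ccnd1 leave changes of a doubling either way within reach.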
